A study of Mus musculus with 4 samples.

Results

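The GFP fraction of the mouse ascending aorta and aortic arch was described on its own, as 2 of the 4 libraries of the series. Both came from Wnt1-Cre;Rosa26-mTmG mice, whose cells make membrane-bound tdTomato, a red protein, and switch to membrane-bound GFP once Cre recombinase has acted. Cre in these mice is driven by Wnt1 regulatory sequence, which is active in the neural crest, so GFP marks cells that descend from a cell in which Cre was once active. The female GFP library was sorted from the suspension of 1 female sample, and the male GFP library from a suspension in which 2 male samples had been pooled. No treatment, age or strain background was given in the sources used here. The libraries were chosen by their labelled sort population alone. With 1 library per suspension, values are given for each library, the difference between them stands for their spread, and no test was made.

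The neural crest is a population of embryonic cells that leaves the dorsal neural tube and migrates through the body. In the arch arteries it gives rise to smooth muscle of the wall, and elsewhere to glia of peripheral nerves, pigment cells, peripheral neurons and the cartilage and bone of the face. Smooth muscle cells contract through a cytoskeleton of smooth muscle actin and myosin, whose genes are activated by serum response factor with its cofactor myocardin. The submitters labelled the sorted cells as vascular smooth muscle cells, although the described sort used only the fluorescent proteins.

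The libraries held 13678806 estimated counts (female GFP) and 10094326 (male GFP). Levels are CPM, counts scaled to a library of 1000000 counts, and a level at 0 counts allowed up to 0.240 CPM in the female GFP library and 0.323 CPM in the male one, the worth of 3 counts taken as a one-sided limit. This limit and the intervals below, each of them with 2 sides, cover counting error only. Of 32948 genes in the table, 7398 (22.5%) had at least 10 counts in both libraries and 7870 had 0 counts in both. The share of all genes at 3 counts or fewer in both was not counted. The numbers of list members at that floor, given below, therefore stand without it. In each library few genes held most of the counts, 382 genes making up 50% of female GFP and 387 making up 50% of male GFP.

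The genes highest in both libraries were of several roles, those of actin and other filaments being the most numerous. Ranked by the lower of both CPM per kb of transcript, the 25 leading nuclear genes included 7 of actin and other filaments, 4 of heat shock, 4 of secreted or secretory proteins and 4 of nuclear-encoded mitochondrial proteins. These groups were formed after the genes were known. Tmsb4x, which binds actin monomers, led the ranking at 13263 CPM per kb in female GFP and 7452 CPM per kb in male GFP. Myl6, a light chain of smooth and non-muscle myosin, stood at 6045 and 4003 CPM per kb in the same order. Myl9, the regulatory light chain of smooth muscle myosin, stood at 3490 and 3409 CPM per kb, and Acta2, smooth muscle actin, at 3345 and 2027 CPM per kb. All 7 filament genes, which also included Dstn, Vim and Tagln, were within 2-fold between the libraries. So were 22 of all 25 genes, and ranking by the lower value favours such agreement.

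Mgp, a secreted inhibitor of calcification made by vascular smooth muscle and cartilage, measured 11153 CPM per kb in female GFP and 4872 CPM per kb in male GFP. Igfbp7, Cpe and Lgals1 were the other secretory genes, at 1191 to 2452 CPM per kb over both libraries. The nuclear RNA Malat1 measured 6500 and 14058 CPM per kb and the snoRNA host Gas5 4188 and 1995 CPM per kb. Malat1, Gas5 and Mgp were the 3 genes of the 25 that lay over 2-fold apart. Ndufa1, Uqcr11, Atp5l and Chchd2, all of the mitochondrion, the ribosomal protein gene Rpl38 and the iron storage gene Fth1 ranked lower in the same list, at 1073 to 2424 CPM per kb. Snord13, also listed, has a model of only 104 bases, shorter than a read of 150 bases, which makes its value per kb uncertain. Several of these genes, Rpl38, Tmsb4x and Fth1 among them, belong to families with processed copies that can share reads. Of the 100 highest genes of each library by CPM per kb, 66 were in both sets.

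**Figure D1:**
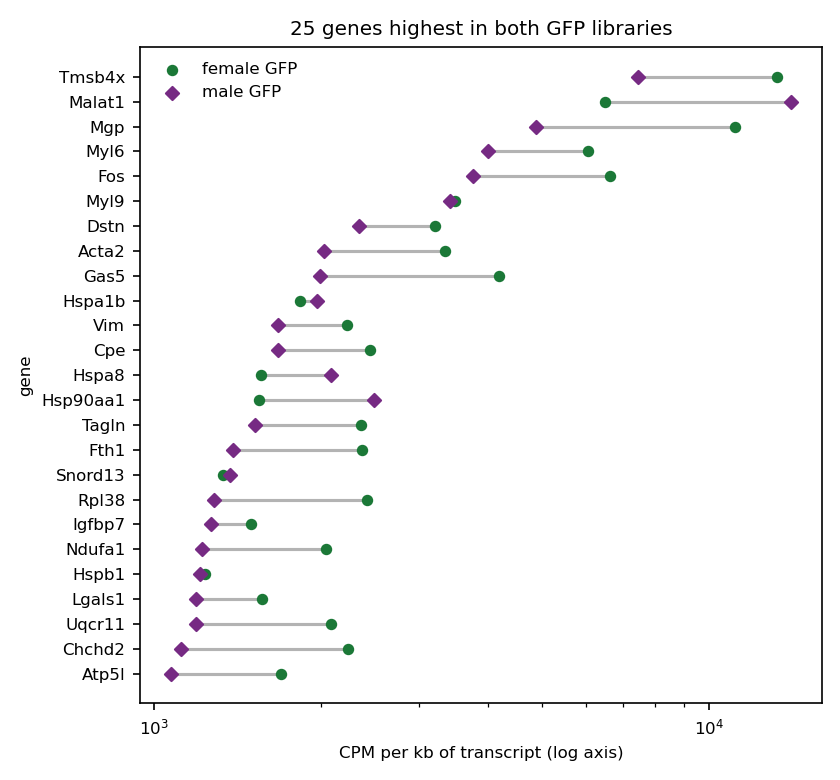
The 25 named nuclear genes with the highest lower value, by CPM per kb of transcript on a log axis, with a circle for female GFP and a diamond for male GFP. Myl9 lay at 3490 and 3409 CPM per kb, whereas Malat1 spread from 6500 to 14058.

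Smooth muscle contractile genes were abundant in both libraries and were close in level between them. Of 18 members, 16 had at least 10 counts in both libraries, against 25.4% of all genes with a symbol, and 15 were at 100 CPM or more in both. The list's median was 7.64 on the log2 scale of CPM per kb (prior 0.1), against -2.03 over all genes with a transcript length. Acta2 measured 6807 CPM (counting interval 6761 to 6853) in the female GFP library and 4124 CPM (4083 to 4166) in the male one. Myh11, the smooth muscle myosin heavy chain, measured 1350 CPM (1330 to 1371) and 2424 CPM (2392 to 2456). The 2 genes were thus high in both libraries, Acta2 higher in female GFP and Myh11 higher in male GFP.

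Myl6 measured 10083 and 6677 CPM in female and male GFP, Myl9 3937 and 3845 CPM, and Tagln, an actin-binding protein of smooth muscle, 3760 and 2430 CPM. Tpm2, a tropomyosin, measured 3003 and 2188 CPM. Of the 16 members with a mean of 10 CPM or more, 14 were within 2-fold, against 24.4% of all such genes with a symbol. Since agreement rose with level, the members were also read by class: all 9 at a mean of 1000 CPM or more were within 2-fold, against 55.0% of the 111 genes of that class, and 5 of 6 at 100 to 1000 CPM, against 40.1%. Smtn, at 158 and 398 CPM, and Sncg, a synuclein of smooth muscle and neurons at 51.5 CPM in female GFP with 0 counts in male GFP, were the 2 exceptions. Des and Pln, which encode desmin and the calcium pump regulator phospholamban, were low, at 4.72 and 6.02 CPM for Des and 1.92 and 0 CPM for Pln. Reads of Acta2 and Actg2 can be shared, because the 2 actins are nearly identical. Actg2 measured 203 and 183 CPM.

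The promoter sequences of Acta2 and Myl9 are shown because both genes were among the 25 leading genes and both windows hold CArG boxes, the sequence that serum response factor binds. The CArG box was searched as 10 letters, 2 C and 2 G around 6 A or T, with at most 1 of these 6 replaced by C or G. The sequences are the 250 bases before the start, from RefSeq on GRCm38.p6, 5′ to 3′ on the gene's strand, with matches in capitals. Acta2 lies on the minus strand at chr19:34255374-34255623 and Myl9 on the plus strand at chr2:156775214-156775463.
Acta2: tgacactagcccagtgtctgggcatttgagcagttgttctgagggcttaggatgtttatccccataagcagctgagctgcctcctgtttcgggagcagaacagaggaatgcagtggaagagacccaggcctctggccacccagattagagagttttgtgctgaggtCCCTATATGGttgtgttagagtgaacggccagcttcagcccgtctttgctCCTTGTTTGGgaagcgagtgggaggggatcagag
Myl9: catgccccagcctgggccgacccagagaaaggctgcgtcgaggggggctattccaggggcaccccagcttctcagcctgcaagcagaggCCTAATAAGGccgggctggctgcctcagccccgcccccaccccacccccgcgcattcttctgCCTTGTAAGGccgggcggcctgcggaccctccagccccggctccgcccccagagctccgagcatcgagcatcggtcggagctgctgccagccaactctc
Counted from the start, with negative positions before it, the matches of Acta2 began at -84 and -34 and those of Myl9 at -161 and -99. At least 2 matches were found in 0.670% of all 32851 windows in the table and at least 1 in 8.59%. These shares are per window and give no test of Acta2 and Myl9, which were chosen for their matches. Of the 15 contractile members with a window, 3 had a match in at least 1 of their windows, the other being Myl6. A match describes the letters only.

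Regulators of smooth muscle were seen in both libraries for 11 of 16 members, against 25.4% of all genes with a symbol. Of 12 with a mean of 10 CPM or more, 3 were within 2-fold, near the 24.4% of all such genes. Myocd, which encodes myocardin, measured 50.6 CPM in the female GFP library and 87.3 CPM in the male one. Srf, serum response factor itself, was low, at 2.56 and 1.83 CPM. Mef2c measured 324 and 208 CPM, Mef2a 301 and 869 CPM, and Klf4, a zinc finger factor that opposes contractile gene expression and also responds to cell isolation, 1523 and 849 CPM. Heyl and Hey2, targets of Notch signalling, were seen in female GFP at 129 and 38.0 CPM, with 0 and 3 counts in male GFP. Tbx18 went the opposite way, with 1.84 CPM in the female GFP library and 223 CPM in the male one.

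Pericyte markers, several of which smooth muscle shares, were present in part. Of 8 analysed, 5 had at least 10 counts in both libraries, against 25.4% of all genes with a symbol. Rgs5, a regulator of G protein signalling, measured 336 and 1707 CPM in female and male GFP, and Cspg4, the NG2 proteoglycan, 128 and 296 CPM. Abcc9, at 79.0 and 96.9 CPM, and Kcnj8, at 8.72 and 67.5 CPM, encode subunits of the same potassium channel. Pdgfrb, the receptor for PDGF-B, measured 54.2 and 49.8 CPM. Notch3, Cox4i2 and Anpep had 0 counts in both libraries. In such bulk libraries fewer cells of a type and less RNA per cell cannot be told apart, for this and every list below.

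**Figure D2:**
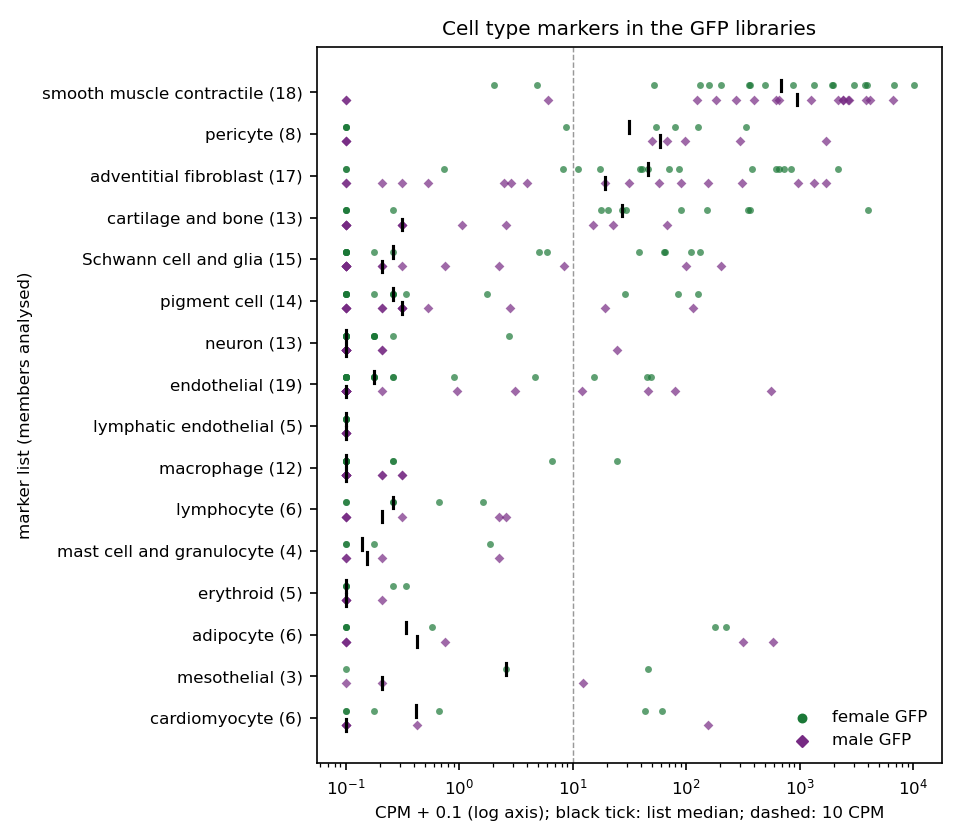
CPM + 0.1 on a log axis for each analysed member of 16 marker lists, circles for female GFP and diamonds for male GFP, with a black tick at the list median and a dashed line at 10 CPM. Contractile genes had medians of 684 and 950 CPM, while the medians of the macrophage and lymphatic endothelial lists were at 0 in both libraries.

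Pigment cell genes were seen in both libraries for 2 members. Dct, dopachrome tautomerase of melanin synthesis, measured 128 CPM (122 to 135) in the female GFP library and 115 CPM (108 to 122) in the male one, and was the only pigment gene above 100 CPM in both. Tyr, tyrosinase, measured 85.4 CPM (80.4 to 90.7) and 19.2 CPM (16.5 to 22.3). Of 14 members analysed, these 2 had at least 10 counts in both libraries, against 25.4% of all genes with a symbol. Another 9 had 3 counts or fewer in both. Mitf, the factor that directs pigment cell development, had 3 and 25 counts, or 0.240 and 2.69 CPM. Pmel, Kit, Tyrp1, Oca2, Gpr143 and Sox10, which encode a melanosome matrix protein, the receptor of stem cell factor, a further melanin enzyme, 2 melanosome membrane proteins and a factor of glial and pigment cells, had 0 to 2 counts. Rab27a, which moves melanosomes but is not limited to pigment cells, measured 29.0 CPM in female GFP with 0 counts in male GFP. Dct and Tyr were thus read without most of the other pigment genes. The list's median was -2.80 on the log2 scale of CPM per kb, below the -2.03 of all genes. In each library alone it was -2.77, against -2.28 over all genes in female GFP and a near-equal -2.72 in male GFP.

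The promoter windows of Dct and Tyr are shown because these were the 2 pigment genes seen in both libraries. The sequence searched was TCATGTG on either strand, the core of the M-box, to which the Mitf protein is known to bind. Dct lies on the minus strand at chr14:118052247-118052496 and Tyr on the minus strand at chr7:87493513-87493762 (RefSeq, GRCm38.p6), again as the 250 bases before the start with matches in capitals.
Dct: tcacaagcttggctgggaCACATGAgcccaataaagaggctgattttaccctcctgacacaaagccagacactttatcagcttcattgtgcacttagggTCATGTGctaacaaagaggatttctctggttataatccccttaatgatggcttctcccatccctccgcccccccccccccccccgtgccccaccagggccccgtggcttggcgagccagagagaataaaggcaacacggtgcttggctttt
Tyr: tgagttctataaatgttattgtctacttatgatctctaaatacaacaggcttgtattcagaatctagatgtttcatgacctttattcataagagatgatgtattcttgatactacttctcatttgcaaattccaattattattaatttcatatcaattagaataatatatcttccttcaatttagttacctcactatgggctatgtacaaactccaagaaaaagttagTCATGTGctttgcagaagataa
Dct had 2 matches, which began at -151 and, as the reverse complement CACATGA, at -232. Tyr had 1 match at -22. Of 11 pigment members with a window, 6 had a match in at least 1 of their windows. Among them was Tyrp1, which had 0 counts in female GFP and 1 count in male GFP. All windows in the table held the motif in 3.25% of cases.

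Genes of Schwann cells, the glia of peripheral nerves, had at least 10 counts in both libraries for 3 of 15 analysed, near the 25.4% of all genes, and 3 counts or fewer in both for 7. Scn7a, a sodium channel of Schwann cells, measured 38.3 CPM in the female GFP library and 202 CPM in the male one, and the calcium-binding protein gene S100b 64.6 and 8.39 CPM. Cdh19, a cadherin of Schwann cell precursors, stood at 131 CPM in female GFP and at 0 counts in male GFP. Pmp22, a myelin membrane protein also made by other cells, measured 110.3 and 0.645 CPM. Several defining genes of the list were at or near 0: Sox10 had 0 counts and 1 count, Mbp 0 and 1, Ngfr 1 and 0, and Gfap 2 and 0. Of 5 members with a mean of 10 CPM or more, 1 was within 2-fold, also near the 24.4% of all genes. The list's median was -1.65 on the log2 scale of CPM per kb, against -2.03 over all genes. In each library alone it was below the median of all genes.

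Peripheral neuron genes were nearly all at the floor. Of 13 analysed, 1 had at least 10 counts in both libraries, against 25.4% of all genes with a symbol. Another 12 had 3 counts or fewer in both, including Tubb3, Prph, Isl1 and Ret at 0 counts in both. Uchl1, a deubiquitinase that is abundant in neurons and not limited to them, measured 2.64 and 24.3 CPM. Wnt1 itself, whose regulatory sequence drives Cre, had 1 count in the female GFP library and 0 in the male one.

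Cartilage and bone genes were high in female GFP for several members and near 0 in male GFP for the same members. Cytl1, a secreted protein of cartilage and vessels, measured 4032 CPM (3997 to 4068) in female GFP, from 50406 counts, and 0.215 CPM (0.0260 to 0.777) in male GFP, from 2 counts. Ibsp, bone sialoprotein, measured 366 CPM against 0 counts, and Chad, chondroadherin, 352 CPM against 0 counts. Sox9, the regulator of cartilage development, measured 151 CPM against 2 counts, Col2a1, the main cartilage collagen, 90.6 CPM against 9 counts, and Col11a1 20.6 CPM against 0 counts. These 6 genes were high in the same library. Acan, aggrecan, went the opposite way, at 17.8 and 67.4 CPM. Comp, at 27.1 and 22.6 CPM, and Col11a2, at 29.7 and 15.2 CPM, were seen in both, and were the 2 of 9 members with a mean of 10 CPM or more that lay within 2-fold. The genes of mineralizing cells Alpl and Spp1 had 0 counts in both libraries, and Runx2 had 2 and 23 counts. The female GFP library is 1 library from 1 sample, and whether the sample or the library made the difference was not tested.

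**Figure D3:**
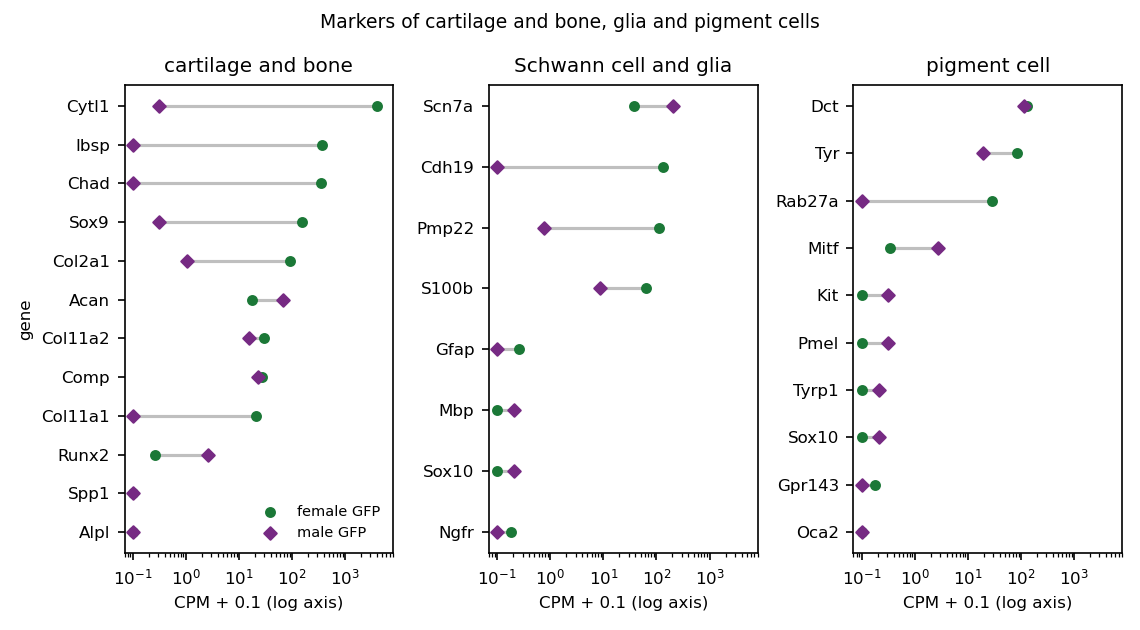
CPM + 0.1 on a log axis, gene by gene, for the members named in the text of the cartilage and bone, Schwann cell and glia, and pigment cell lists, with a circle for female GFP and a diamond for male GFP joined by a line. Cytl1 spanned 0.215 to 4032 CPM, Dct only 115 to 128 CPM, and Pmel and Tyrp1 were near 0 in both libraries.

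Fibroblasts populate the adventitia around the muscle layer. Of 17 fibroblast genes, 11 had at least 10 counts in both libraries, against 25.4% of all genes with a symbol. Of 13 with a mean of 10 CPM or more, 2 were within 2-fold, against 24.4% of all such genes. These were Col1a1 at 71.3 and 58.1 CPM and Cd34 at 40.5 and 31.5 CPM. By class they were 2 of 7 at 10 to 100 CPM, against 18.9% of all genes there. None of 4 at 100 to 1000 CPM and none of 2 at 1000 CPM or more was within 2-fold, against 40.1% and 55.0%. The fibrillar collagens Col3a1 (613 and 1710 CPM) and Col1a2 (652 and 1325 CPM), which smooth muscle makes too, were higher in male GFP. Dcn, Gsn and Lum were higher in female GFP, at 2156 against 155 CPM, 831 against 313 CPM and 722 against 2.80 CPM. Serpinf1 and Fbln1 were also higher in female GFP. Pi16, Mfap5 and Col14a1 went the opposite way, at 10.96 against 89.26 CPM, 381 against 965 CPM and 8.08 against 19.03 CPM. Clec3b, with 8 counts in female GFP and 36 counts in male GFP, did so too. Dpt and Ly6a were at 85.8 and 39.2 CPM in female GFP and at 0 counts in male GFP. Pdgfra, the receptor that marks fibroblasts, had 0 and 4 counts.

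Most markers of blood and blood vessel lining were low. Of 19 endothelial genes, 4 had at least 10 counts in both libraries, near the 25.4% of all genes with a symbol. Another 12 had 3 counts or fewer in both, among them Cdh5, Kdr, Tek, Tie1 and Cldn5. Erg, an endothelial transcription factor also found in cartilage, measured 44.9 CPM in the female GFP library and 555 CPM in the male one, Flt1, a VEGF receptor, 48.8 and 46.0 CPM, Esam 4.56 and 80.2 CPM, and Pecam1 15.4 and 11.9 CPM. All 5 lymphatic endothelial genes had 0 counts in both libraries. Of 12 macrophage genes, none had at least 10 counts in both, against the same 25.4%. In both libraries 10 of them had 3 counts or fewer, and C1qb, Cd68, Lyz2 and Mrc1 were at 0. The other 2 macrophage genes were seen in female GFP, Cd14 at 24.3 CPM and Csf1r at 6.48 CPM, each with 1 count in male GFP. Ptprc, the antigen CD45 of all leukocytes, had 2 counts in each library, and the 5 red cell genes analysed had 0 to 3 counts. Among 6 lymphocyte genes Ms4a1 had 19 and 20 counts and Cd3d 7 and 23, with 0 to 2 for the others, and among 4 mast cell and granulocyte genes Csf3r had 22 and 20 counts, with 0 or 1 for the others.

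Transcription factors of crest and pharyngeal arch development were seen for some families and not for others. Of 26 analysed, 10 had at least 10 counts in both libraries, against 25.4% of all genes with a symbol. Foxc1, a forkhead factor of crest-derived mesenchyme, measured 182 and 241 CPM in female and male GFP, Gata6 175 and 118 CPM, Foxc2 58.4 and 277 CPM, and Ets1 50.6 and 30.8 CPM. Prrx1, a homeobox factor of the same mesenchyme, measured 248 CPM in female GFP and had 3 counts in male GFP. Snai1 and Dlx2 were at 43.4 and 12.9 CPM in female GFP and at 0 counts in male GFP, while Dlx6 had 3 counts and 16.6 CPM. Of the crest factors, Pax3, Pax7, Tfap2b and Sox10 had 0 to 3 counts in either library. Others were seen, Msx1 at 15.8 and 175 CPM and Twist1 at 4.56 and 80.2 CPM in female and male GFP. Tfap2a had 37 and 3 counts and Snai2 41 and 4 counts. Members of the Hox family set identity from head to tail. Of 18 Hox genes, 2 had at least 10 counts in both libraries, against the same 25.4%. These were Hoxb3 at 19.6 and 29.9 CPM and Hoxa5 at 13.3 and 5.27 CPM. Hoxa3 measured 24.4 CPM in male GFP against 0 counts, and Hoxb4 13.2 CPM against 4 counts. Hoxb3 shares 1153 bases of exon with the antisense gene Hoxb3os, and Hoxa3 shares 503 bases with Hoxaas2, so that reads of each pair cannot be told apart without strand.

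Matrix genes of the elastic wall were present in both libraries at varied levels. Of 20 elastic fibre genes, 12 had at least 10 counts in both, against 25.4% of all genes with a symbol. Fbln5, fibulin-5, measured 603 and 836 CPM in female and male GFP, Eln, elastin, 525 and 392 CPM, Ltbp1 443 and 727 CPM, Mfap5 381 and 965 CPM, and Lox, which cross-links elastin and collagen, 203 and 168 CPM. Of 15 with a mean of 10 CPM or more, 6 were within 2-fold, against 24.4% of all such genes. In the class of 100 to 1000 CPM 5 of 8 were within 2-fold, against 40.1% of all genes there. Ltbp2, Fbln2, Efemp1 and Emilin1 were seen in female GFP, at 17.4 to 65.0 CPM, with 0 to 2 counts in male GFP. Of 22 collagen chains, 16 had at least 10 counts in both libraries, against the same 25.4%. Of 18 with a mean of 10 CPM or more, 7 were within 2-fold, against 24.4% of all such genes. By class these were 2 of 5 at 10 to 100 CPM, against 18.9% of all genes there. At 100 to 1000 CPM they were 5 of 12, near the 40.1% of all genes there, and the 1 chain above was not. Col18a1 measured 355 and 520 CPM, Col4a1 314 and 157 CPM, and Col15a1 126 and 162 CPM. Others lay far apart in either direction, Col4a6 at 347 and 20.6 CPM, Col5a2 at 308 and 40.3 CPM, Col4a5 at 107 and 779 CPM, and Col6a1 at 70.2 and 391 CPM. Col8a1 measured 259.7 CPM in female GFP with 0 counts in male GFP.

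Genes that respond to tissue digestion and other stress were abundant in both libraries. Of 25 early response genes, 22 had at least 10 counts in both, against 25.4% of all genes with a symbol. All 15 heat shock genes were at 100 CPM or more in both. Fos, a subunit of the AP-1 factor, measured 13960 CPM in the female GFP library and 7907 CPM in the male one, Egr1 4434 and 2421 CPM, Dusp1 1828 and 1335 CPM, and Fosb 789 and 538 CPM. Of 23 early response genes with a mean of 10 CPM or more, 12 were within 2-fold, against 24.4% of all such genes. By class these were 4 of 4 at 1000 CPM or more, against 55.0% of all genes there, and 6 of 14 at 100 to 1000 CPM, against 40.1%. Btg2, an inhibitor of proliferation, was among those further apart, at 449 and 58.4 CPM, as was Klf2 at 774 and 143 CPM. Of the 15 heat shock genes, 9 were within 2-fold. By class these were 5 of 8 at 1000 CPM or more and 4 of 7 at 100 to 1000 CPM, against the same 55.0% and 40.1%. Nr4a3 was at 55.4 CPM in female GFP and at 2 counts in male GFP. Hsp90aa1 measured 5064 and 8163 CPM, Hspa1b 5132 and 5506 CPM, Hspa8 3726 and 4999 CPM, Hsp90ab1 1256 and 3855 CPM, and Hspb1 1149 and 1125 CPM. Hspa1b and its neighbour Hspa1a are near-identical, and reads can be shared between them.

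Genes used as steady references were seen in both libraries with few exceptions, at unequal levels. Of 29 housekeeping genes analysed, 26 had at least 10 counts in both libraries, against 25.4% of all genes with a symbol. Of 26 with a mean of 10 CPM or more, 13 were within 2-fold, against 24.4% of all such genes. None of the 3 at a mean of 1000 CPM or more was, against 55.0% of all genes there. Of these, Actb, cytoplasmic actin, measured 3656 and 1518 CPM in female and male GFP, and Eef1a1, an elongation factor, 3034 and 421 CPM. At 100 to 1000 CPM 9 of 13 were within 2-fold, against 40.1% of all genes there. Ppia measured 1068 and 585 CPM and Rplp0 1032 and 551 CPM. Psmb2, a proteasome subunit, measured 98.3 CPM in female GFP and had 1 count in male GFP. Tbp went the opposite way, at 1.52 and 59.8 CPM, and shares 1157 bases of exon with Pdcd2 on the opposite strand. Mitochondrially encoded genes took 5.97% of female GFP counts and 2.19% of male GFP counts. Of the 14 with a mean of 10 CPM or more, 3 were within 2-fold, against 24.4% of all such genes. At 1000 CPM or more 2 of 8 were, against 55.0%. The ribosomal RNA mt-Rnr2 measured 32580 and 13205 CPM, and mt-Atp6 4591 and 2622 CPM.

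Agreement between the libraries rose with level but stayed far from counting error. At a mean of 10 to 100 CPM, 18.9% of 5751 genes were within 2-fold on the log2(CPM + 0.5) scale. This share was 40.1% of 1973 genes at 100 to 1000 CPM and 55.0% of 111 genes at 1000 CPM or more. The share at 1 to 10 CPM, 24.7% of 4939 genes, was not lower, but the prior of 0.5 CPM narrows differences there. The median absolute log2 difference was 2.37, 3.58, 1.31 and 0.87 from the lowest class to the highest, where counting error alone would give 0.23, 0.077, 0.031 and 0.010. Genes at 0 counts in male GFP made up 17.3% at 10 to 100 CPM and 1.27% at 100 to 1000 CPM, and those at 0 counts in female GFP 6.03% and 1.37%. No gene at 1000 CPM or more was at 0 in either library.

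**Figure D4:**
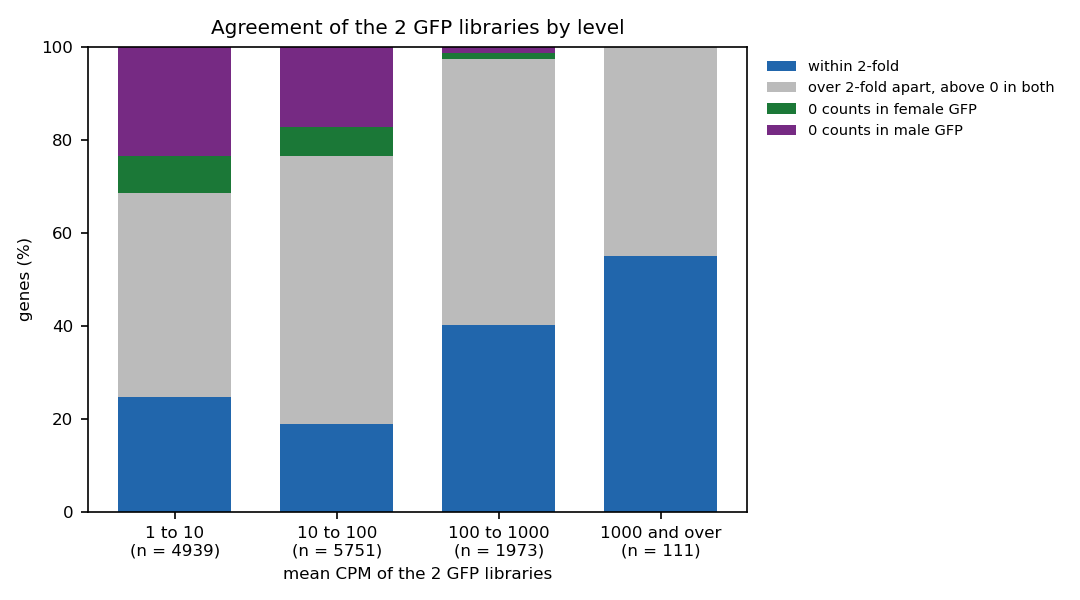
Percent of genes in 4 classes of mean CPM, stacked as within 2-fold, over 2-fold apart with counts in both, 0 counts in female GFP and 0 counts in male GFP. The share within 2-fold was lowest at 10 to 100 CPM (18.9%) and highest at 1000 CPM and over (55.0%).

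The genes that agreed best at high level were of mixed function. Of 157 named nuclear genes at 500 CPM or more in both libraries, 121 (77.1%) were within 2-fold, a share raised by asking for the level in both. The closest was H2afz, a histone variant, at 605.1 CPM in the female GFP library and 604.9 CPM in the male one. Oaz1, which regulates polyamines, measured 578 and 582 CPM, Tceal9 728 and 717 CPM, and Slc38a2, an amino acid carrier, 2599 and 2751 CPM. Fn1, fibronectin, measured 901 and 954 CPM, and Sub1 581 and 617 CPM. Plac9a, at 653 and 648 CPM, has a duplicated neighbour that can share its reads. Hspb1 and Myl9, described above, were also among the 10 closest. Syn3, at 658 and 668 CPM, shares 1733 bases of exon with Timp3 on the opposite strand, which measured 738 and 2403 CPM, so that its reads cannot be assigned without strand.

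**Figure D5:**
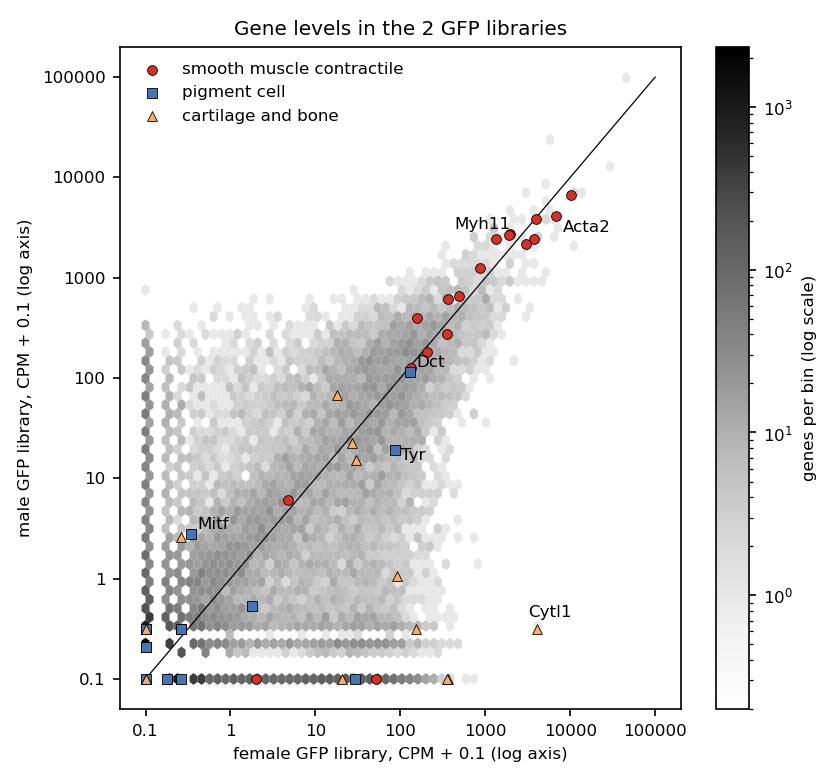
CPM + 0.1 of every gene with a count in either library, female GFP on the horizontal and male GFP on the vertical log axis, shaded by the number of genes per bin, with the line of equal levels and 3 marker lists overlaid. Contractile genes lay along the line at high level, Cytl1 at 4032 and 0.215 CPM far below it, and many genes along the axes at 0 counts in 1 library.

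Many genes were seen in only 1 library. At least 10 counts in female GFP against 0 in male GFP were found for 2651 genes, 2298 of them among the 25182 genes with a symbol (9.13%). The opposite was found for 959 genes, 752 of them with a symbol (2.99%). At 100 CPM or more the numbers were 135 and 113. These genes held 6.55% of the counts of female GFP and 3.34% of those of male GFP, whereas the 7398 genes seen in both held 87.7% and 94.2%. Their transcripts were shorter than those of genes seen in both, with medians of 2387 bases (female GFP only), 2495 bases (male GFP only) and 3119 bases (both). At a mean of 10 to 100 CPM, 25% of genes with transcripts up to 1000 bases were at 0 in male GFP, against 12.7% at 4000 to 8000 bases and 5.06% above 8000 bases. In female GFP these shares were 7.31%, 5.01% and 3.80%. At 100 to 1000 CPM the shares in the same 3 length classes were 2.76%, 1.07% and 0% in male GFP. They did not fall with length in female GFP, at 0%, 0.890% and 0.645%. Male GFP had the lower total count.

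The highest genes seen in only 1 library were of mixed function. In female GFP they were led by Cops9, a subunit of the COP9 signalosome, at 659 CPM, then Ibsp and Chad, described above, Rab18, a GTPase of lipid droplets, at 335 CPM, and Snrpe, a spliceosome core protein, at 299 CPM. Mcur1, Cpeb2, Pdcd6, Col8a1 and Znhit6 followed at 245 to 281 CPM. In male GFP they were led by Zfp958 at 700.1 CPM, Gca at 376 CPM, Zfp955a at 349 CPM and Guk1, guanylate kinase, at 330.3 CPM. Cdc14b, Rgs19, Mir17hg, Prune2, Ncapd3 and Zfp420 followed at 279.7 to 328 CPM. The Zfp genes have many close relatives and their counts are uncertain. Several of these genes, Snrpe and Guk1 among them, serve functions common to all cells. Of 361 list genes analysed, 178 had at least 10 counts in both libraries, 29 were seen in female GFP only and 6 in male GFP only. The shares over all genes with a symbol were 25.4%, 9.13% and 2.99%. Of 8 sex-linked genes, the Y-linked Eif2s3y and Ddx3y measured 181 and 143 CPM in male GFP and had 0 counts in female GFP. Xist, the RNA that silences an X chromosome in females, measured 801 CPM in female GFP and had 13 counts in male GFP. It shares 1980 bases of exon with the antisense Tsix. Uty, also Y-linked, had 153 counts in male GFP but 47 counts in female GFP. The X-linked genes Eif2s3x and Kdm6a, which both sexes express, measured 74.8 and 15.1 CPM in female GFP and had 0 counts in male GFP.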

How the data were processed

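RNA from sorted cells was copied from its poly(A) tails with the SMART-Seq v4 kit, amplified by PCR, cut by Tn5 transposase and read as pairs, per the labels' protocols. The kit does not mark strand. Tools named in the submitters' processing notes were HISAT2, fastp and StringTie, with the build GRCm39. For the counting program and its annotation, the sources used here gave no name. Values deposited by the authors were expected counts per gene (estimated counts, 67.0% and 69.1% of them whole in the GFP columns, tolerance 1e-06), not scaled. They were rounded here.

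CPM used TMM factors (edgeR 4.0.16, R 4.3.3) over all 4 libraries, on the counts of 15055 genes with at least 10 counts by filterByExpr; the factors were 0.922 (female GFP) and 0.931 (male GFP). The tdTomato libraries entered nothing else. Symbols and lengths (longest basic transcript) came from GENCODE M21 on GRCm38, matched by identifier for 76.4% of genes, which held 94.7% and 92.7% of the counts. Of 416 list genes, 55 without a match were not analysed here, and values of a few other members are not reported here. Intervals are exact 95% Poisson intervals. The functions used were tested on simulated data. No statistical test was made.

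Members and lists were chosen with earlier results of these data known. The naming rule took the 25 genes highest in both libraries by CPM per kb, up to 5 members of each list by the lower CPM, up to 4 members at 10 CPM or more in 1 library and 3 counts or fewer in the other, the 10 highest genes seen in each library only, and the 10 closest genes at 500 CPM or more. Approved symbols were required. Other list members named, mostly at or near 0 or against the trend of their list, and Timp3 were chosen after their values were seen. Alternatives covered scaling (library totals, DESeq2 1.42.0 size factors), minimum counts, the prior, the level class, transcript length and leaving out a library.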

Additional observations from a re-analysis of the deposited data

How the results depend on the processing

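No paired analysis was possible because only 2 libraries of 1 fraction were described and no test was made; leaving out a library gives no value for agreement or for genes seen in both or in 1 library. The 7398 genes seen in both fell to 3981 with a minimum of 10 CPM, and stayed within 1.5 times with minimums of 3 or 30 counts and with genes with a symbol only. Genes seen in 1 library numbered 1438 (female GFP) and 492 (male GFP) at 10 CPM or more against 0. The share within 2-fold at 1 to 10 CPM was 37.6% with a prior of 2 CPM, 28.3% when genes were classed by the higher CPM and 22.3% for genes with a symbol. Classed by the higher CPM, it was 28.7% at 100 to 1000 CPM and 42.8% at 1000 CPM or more, so the rise with level held from 10 CPM up, and with DESeq2 size factors it was 37.9% at 100 to 1000 CPM. The contractile list's level moved by less than the spread of the libraries in each alternative tried (7.47 and 7.87 in female and male GFP alone). The Schwann list's level was -1.65 in the main setting, against -2.03 over all genes. It was -2.64 in female GFP alone and -3.03 in male GFP alone, against -2.28 and -2.72 over all genes. With members at 10 counts or more in at least 1 library only, it was 1.63. The pigment list, whose median member was at the floor, stood at -0.057 on members so filtered, at -2.83 with library totals, at -2.76 with DESeq2 size factors, and at -2.79 and -2.81 with median and union transcript lengths (lengths added after seeing the data), and at -2.77 with either library left out. The filter raises a level by its construction, and the cause of the other moves was not tested. Depth limits what is said of genes under about 3 counts.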

Other observations

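Cell cycle genes were seen in part. Of 15 analysed, 4 had at least 10 counts in both libraries, near the 25.4% of all genes, and 6 had 3 counts or fewer in both. The mitotic markers Mki67 and Top2a had 2 counts and 1 count in the female GFP library and 0 in the male one. Ccnb1 and Aurka had 0 counts in both. In the same order, Birc5 had 13 and 17 counts, Ccnb2 19 and 0, Ccna2 15 and 0, and Cdc20 0 and 60. Some genes of DNA replication were seen in female GFP, with Mcm6 at 104 CPM, Pcna at 82.0 CPM and Tyms at 41.4 CPM, and stood at 8.71, 3.76 and 2.80 CPM in male GFP. Mcm2 went the opposite way, at 0.320 and 5.70 CPM, while Mcm3 had 0 counts in both libraries and Mcm5 had 0 counts and 1 count. Of 6 adipocyte genes analysed, Lpl, lipoprotein lipase, measured 225 and 580 CPM in female and male GFP and Fabp4, a fatty acid carrier, 180 and 319 CPM, while the defining genes Adipoq and Ucp1 had 0 counts in both and Plin1 had 6 in each. Of 6 cardiomyocyte genes, the calcium release channel Ryr2 measured 43.5 and 156 CPM and Tnnt2, a troponin, 60.8 CPM and 3 counts, while Myh7 and Mybpc3 had 0 counts in both. Krt18, of the mesothelial list, measured 46.2 CPM in female GFP and 0 counts in male GFP, and Msln, mesothelin, 2.48 and 12.4 CPM.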
